A study of Mus musculus with 8 samples.

Results

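Adrenomedullin and the parts of its receptor were followed in whole mouse embryos at embryonic day 9.0. The set holds 5 genes, namely the ligand gene Adm, the receptor gene Calcrl and the accessory protein genes Ramp1, Ramp2 and Ramp3. They are covered by 7 of 41174 probes, chosen because the array files give one of these names as the gene name, and all 5 genes were among the 17099 genes tested. The study compared wild-type embryos with Arid3b-null embryos, which lack the AT-rich interaction domain protein Arid3b. There were 4 samples of each genotype, each the total RNA of a pool of 3 to 4 embryos, read on 8 one-colour Agilent arrays. The labels do not say how the null allele was made or whether the pools are of separate litters. They also do not say whether pools of the same number belong together. The null pools kept 25.0% to 54.2% of the wild-type Arid3b signal over its 3 probes, but it is not known here if the deletion covers them. Pools 1 and 2 of each genotype shared slide 1 and pools 3 and 4 shared slide 2. Array positions 1 and 2 of a slide held wild-type RNA and positions 3 and 4 null RNA, and position therefore cannot be told apart from genotype.

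Adrenomedullin is a secreted peptide that relaxes vessels and is needed for the growth of blood and lymph vessels in the embryo. Its receptor is the G protein-coupled receptor encoded by Calcrl, which reaches the cell surface only together with a receptor activity-modifying protein. With the product of Ramp2 or Ramp3 it binds adrenomedullin, and with that of Ramp1 it binds calcitonin gene-related peptide. Binding raises cyclic AMP in the cell. In the mouse, loss of Adm, Calcrl or Ramp2 is lethal before birth with swelling and defects of vessels, and Adm is a known target of the hypoxia-inducible factors.

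The set was selected on the measured signals of null against wild-type pools, with the rise of Adm known. For these 5 genes the values of null against wild type are therefore given as a description, with no test. The stretch before the start of Adm is shown because Adm is the member that differed most between the genotypes, and that of Calcrl, its receptor, is shown for comparison. Of the 5 genes 4 were matched by symbol in the RefSeq promoter table (GRCm38.p6), namely Adm, Calcrl, Ramp1 and Ramp3. The sequences below are the 250 bases before the start of transcription, read 5′ to 3′ on the gene's strand, at chr7:110627407-110627656 for Adm (plus strand) and chr2:84425267-84425516 for Calcrl (minus strand). Capitals mark matches to ACGTG or GCGTG on either strand, the core letters that hypoxia-inducible factors bind, so that CACGC in capitals is GCGTG on the other strand.
Adm: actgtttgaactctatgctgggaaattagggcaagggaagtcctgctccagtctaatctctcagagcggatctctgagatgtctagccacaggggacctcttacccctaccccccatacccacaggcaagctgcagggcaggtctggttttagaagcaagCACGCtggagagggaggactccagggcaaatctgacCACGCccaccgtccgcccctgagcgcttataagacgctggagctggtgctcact
Calcrl: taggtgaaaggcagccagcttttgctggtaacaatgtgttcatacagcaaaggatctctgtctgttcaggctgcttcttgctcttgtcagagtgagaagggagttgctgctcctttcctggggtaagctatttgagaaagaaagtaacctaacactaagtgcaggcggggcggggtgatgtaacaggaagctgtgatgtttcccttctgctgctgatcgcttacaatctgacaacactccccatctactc

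The Adm stretch held 2 such matches, which begin 90 and 54 bases before the start, and the Calcrl stretch held 0. Ramp3 also had 2 matches and Ramp1 had 0. Over 32851 promoters of the same length 38.6% held at least 1 match and 16.7% held 2 or more, so that these letters are common. The palindrome TGACGTCA, to which factors activated by cyclic AMP bind, was in none of the 4 stretches and in 1.55% of all promoters. The letters TATAA, searched on both strands, were found in Adm on each strand, at positions that overlap, beginning 28 and 27 bases before the start. They were in none of the other 3 and in 22.8% of all promoters. GGGCGG, the GC box, was found once in Adm, once in Calcrl and 3 times in Ramp3, against 32.7% of promoters with any match. A match describes the letters only and does not show binding.

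The ligand gene stood higher in every null pool. Signals are log2 processed signals minus the 75th percentile of the array, so that 0 is the level of the 75th percentile, and they cannot be set against each other between probes. The Adm probe lies at chr7:106544845-106544904 on the array's build, mm7, and was well above background on all 8 arrays. Its signal in wild-type pools 1 to 4 was -1.73, -1.70, -1.70 and -1.73. In null pools 1 to 4 it was 0.36, 0.61, -0.22 and -0.39. The lowest null pool was above the highest wild-type pool, and the null pools on slide 1 were above those on slide 2. The means were -1.71 ± 0.02 in wild type and 0.09 ± 0.47 in null (SD, n = 4 pools each). Relative to the wild-type geometric mean, the null pools stood at 422%, 499%, 282% and 251%. Between pools of the same number the difference was 2.09, 2.30, 1.48 and 1.34. The difference of the means, null minus wild type, was 1.80 ± 0.21 (log2, SE of the limma fit), a ratio of geometric means of 3.49. The groups did not overlap for 1 of the 5 genes, Adm, where null was higher. Over all 17099 genes 16.1% had groups that did not overlap (8.08% with null higher, 8.06% with null lower), and 4.20% were called by limma at an adjusted p under 0.05. As the contrast served to choose Adm, nothing is read from that comparison.

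**Figure D1:**
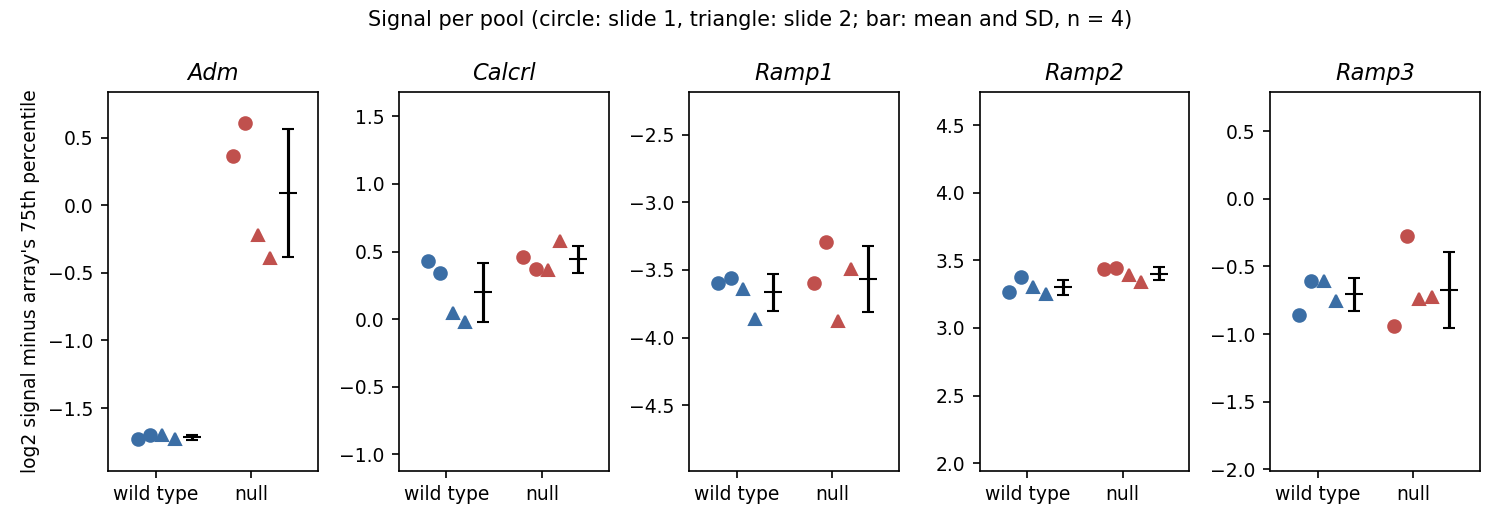
Log2 signal relative to the array's 75th percentile (vertical axis, the same span of 2.8 in every panel) for the 5 genes in 4 wild-type pools (blue) and 4 null pools (red), in the order of pools 1 to 4, with circles for slide 1 and triangles for slide 2. Black bars give mean and SD (n = 4). The groups are apart for Adm and overlap for the other 4 genes.

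The spread of Adm differed between the genotypes. The wild-type SD of 0.02 was undercut by 0.298% of all genes, against a median wild-type SD of 0.15. The null SD of 0.47 was above that of 87.5% of all genes, whose median null SD was 0.19. The wild-type pools thus held nearly the same Adm signal on both slides (slide 2 minus slide 1, -0.0010), while the null pools differed by -0.79.

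Calcrl, the receptor that all 3 accessory proteins pair with, overlapped between the genotypes. Its brighter probe, at chr2:84174628-84174687 (mm7, minus strand), gave 0.43, 0.34, 0.04 and -0.02 in wild-type pools 1 to 4. The null pools 1 to 4 stood at 0.46, 0.37, 0.36 and 0.58. Wild-type pools 3 and 4 were below every other pool. The means were 0.20 ± 0.22 and 0.44 ± 0.10 (SD, n = 4), a difference of 0.25 ± 0.12 (SE), or a ratio of 1.19. Within slide 1 the difference was 0.03 and within slide 2 it was 0.46. Between pools of the same number, null minus wild type was 0.032, 0.032, 0.32 and 0.60. A further Calcrl probe, at chr2:84176632-84176691, was not well above background on any array, and no fold is given for it.

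Ramp2, which encodes the accessory protein of the main adrenomedullin receptor of vessels, had a narrow range across the pools. Its probe, at chr11:101357227-101357286 (mm7), gave 3.27, 3.38, 3.30 and 3.25 in wild-type pools 1 to 4 and 3.43, 3.44, 3.39 and 3.34 in null pools 1 to 4. The lowest null pool lay below the highest wild-type pool, and the other 3 null pools lay above all wild-type pools. The means were 3.30 ± 0.06 and 3.40 ± 0.05 (SD, n = 4), with a difference of 0.10 ± 0.07 (SE), or a ratio of 1.07. Between pools of the same number, null minus wild type was 0.17, 0.064, 0.087 and 0.093. The SD within groups was 0.05, and 1.48% of all genes had a smaller one.

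Ramp3 encodes the accessory protein of the other adrenomedullin receptor. Its probe, at chr11:6629300-6629359 (mm7), gave -0.86, -0.61, -0.61 and -0.75 in wild-type pools 1 to 4 and -0.94, -0.28, -0.74 and -0.73 in null pools 1 to 4. Null pool 1 was the lowest of all pools and null pool 2 the highest. The means were -0.71 ± 0.12 and -0.67 ± 0.28 (SD, n = 4), with a difference of 0.03 ± 0.14 (SE), or a ratio of 1.02. Between pools of the same number the difference was -0.088, 0.33, -0.13 and 0.026, of mixed sign.

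Ramp1 encodes the partner that turns the receptor towards calcitonin gene-related peptide. Its probe, given as chr1:91104321-91130576 (mm7), lay well above background on all arrays, at processed signals of 102 to 141. The log2 signals were -3.59, -3.56, -3.64 and -3.86 in wild-type pools 1 to 4 and -3.60, -3.29, -3.88 and -3.49 in null pools 1 to 4. Null pools held both the lowest and the highest of the 8 values. The means were -3.67 ± 0.14 and -3.56 ± 0.24 (SD, n = 4), with a difference of 0.10 ± 0.13 (SE), or a ratio of 1.07. Between pools of the same number the difference was -0.0022, 0.27, -0.23 and 0.37, of mixed sign. A further probe that the files name Ramp1, at chr1:91095243-91095302, was not well above background on any array.

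Setting the ligand against its receptor within each array removes any scaling between arrays. The log2 ratio of Adm to Calcrl, relative to its wild-type mean, ran from -0.25 to 0.20 in wild type and from 0.94 to 2.15 in the null pools. For Ramp2 the wild-type range was -0.06 to 0.04 and the null range 1.28 to 2.18. Against Ramp3 the null pools ran from 1.35 to 2.31, and against Ramp1 from 1.15 to 2.01. The mean ratio of Adm to Calcrl was thus 2.95 times that of wild type, and those to Ramp1, Ramp2 and Ramp3 were 3.26, 3.25 and 3.41 times. These ratios rest on the values that chose the set and are a description. They do not show that a receptor gene was unchanged, and they hold the same Adm values in all 4 cases.

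**Figure D2:**
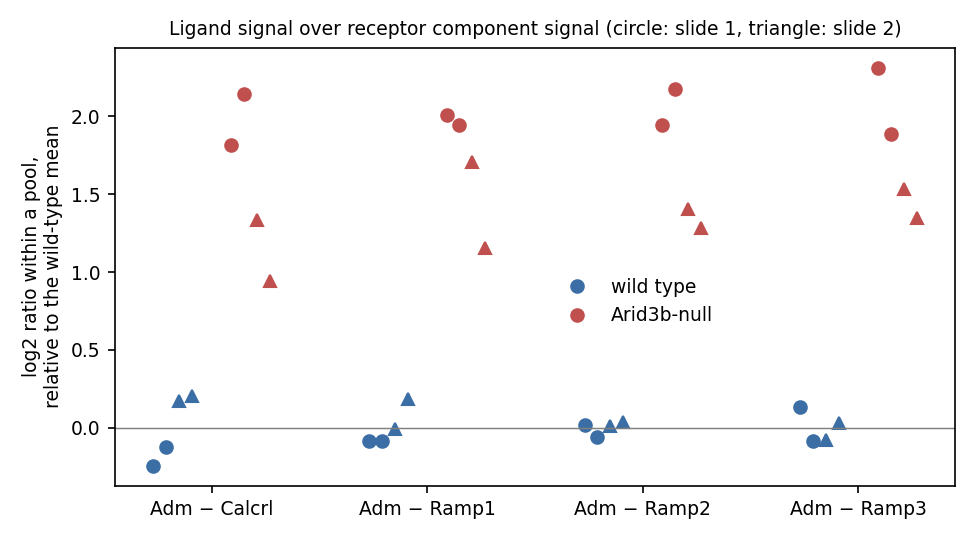
Log2 ratio of the Adm signal to that of Calcrl, Ramp1, Ramp2 or Ramp3 within a pool, relative to the wild-type mean (vertical axis), in wild-type (blue) and null pools (red), with circles for slide 1 and triangles for slide 2. All null pools lie above 0.9 and all wild-type pools between -0.25 and 0.20.

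The slides, which did not serve to choose the genes, were tested with limma in a model with genotype, slide and their interaction. Slide 2 was lower than slide 1 for Adm by a mean over genotypes of -0.39 ± 0.08 (SE, log2; limma adjusted p = 0.0345), a contrast that called 10.3% of 17002 genes. The mean comes from the null pools, as given above. Each slide held different pools, so an effect of the slide cannot be told apart from differences between those pools. Calcrl stood at -0.16 ± 0.08, Ramp1 at -0.21 ± 0.12, Ramp2 at -0.06 ± 0.06 and Ramp3 at -0.04 ± 0.16 (limma adjusted p = 0.268, 0.349, 0.615 and 0.904). The Adm call was lost when any wild-type pool was left out (limma adjusted p = 0.0983, 0.117, 0.118 and 0.132 without pools 1 to 4) and when null pool 3 or 4 was left out (0.0708 and 0.13). It was also lost with no shift between arrays (0.256), with normexp (0.677) and without the filter on dim probes (0.0598).

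Whether the difference between genotypes itself differed between slides was tested by the interaction. For Adm the difference was 2.20 within slide 1 and 1.41 within slide 2, an interaction of -0.79 ± 0.17 (SE, log2). For Calcrl it was 0.43 ± 0.15. In limma their p-values before adjustment were 0.00295 and 0.0315, and neither passed, with an adjusted p of 1.0 for all 5 genes. The interaction called 0.00588% of genes, which is 1 of 17002 (Gm270, named after its value was seen), with 372 at an unadjusted p under 0.05. The interactions of Ramp1, Ramp2 and Ramp3 were -0.07 ± 0.24, -0.02 ± 0.13 and -0.17 ± 0.31.

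Most other genes of the pathway did not pass the test between the genotypes. These genes were not used to choose the set, but this list and those below were drawn up with earlier results of these data known. The shares called are therefore a description. Of 41 listed genes 37 were measured, of which 2 rose, 1 fell and 34 did not pass, so that 8.11% were called against 4.20% over all genes. The median difference of the 37 was 0.01, and it was -0.01 over all genes. With the pool number as a block, 6 of the 37 were called, 4 higher and 2 lower. Over all 17099 genes 2343 were then called in place of 718, so nothing about the pathway is read from this count. The additional pathway genes were the adenylyl cyclase genes Adcy6 (0.28) and Adcy9 (0.28), and Prkar2a (-0.44), which encodes a regulatory subunit of protein kinase A.

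Among the ligands related to Adm, Calca, which encodes calcitonin and calcitonin gene-related peptide, and Iapp, which encodes amylin, were measured. Adm2 and Calcb were on the array but not kept. Iapp stood at -0.12 ± 0.16 (SE, log2; limma adjusted p = 0.753). Calca ran from -0.08 to 0.18 in wild type and from -0.23 to 0.12 in null pools 1, 2 and 4, and stood at -7.10 in null pool 3, where its spot was not well above background. Its limma adjusted p was 0.555. The other Calca probe was well above background on all 8 arrays and gave -3.07 in null pool 3, within the range of -3.17 to -2.53 of the null pools.

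Of 7 measured genes for receptor partners, maturation, uptake and breakdown, 1 fell and none rose (14.3% called, against 4.20% over all genes). Crcp, which encodes the receptor component protein that couples the receptor to its G protein and is also a subunit of RNA polymerase III, gave 1.98, 2.07, 2.02 and 2.08 in wild-type pools 1 to 4. The null pools 1 to 4 gave 1.62, 1.47, 1.62 and 1.81, all below the wild-type pools, which held for 8.06% of all genes. Crcp fell by 0.41 ± 0.08 (SE, log2; limma adjusted p = 0.0402), a ratio of 0.752, and lost its call in 7 of the 8 fits that leave out a pool (adjusted p up to 0.12). The scavenger receptor gene Ackr3, which binds adrenomedullin without signalling through G proteins, stood at 0.15 ± 0.08 (adjusted p = 0.358). Pam, the enzyme that amidates the peptide, stood at 0.13 ± 0.24, the peptidase gene Mme at 0.09 ± 0.10 and Gpr182, a receptor gene of vessels, at 0.09 ± 0.09. Calcr, the calcitonin receptor that also pairs with the accessory proteins, stood at 0.28 ± 0.13, and Nsf, of membrane traffic, at -0.22 ± 0.09 (adjusted p = 0.267 and 0.215).

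Of 28 measured genes of signalling through cyclic AMP, 2 rose, none fell and 26 did not pass (7.14% called, against 4.20% over all genes). Pde4b, a phosphodiesterase gene whose product breaks down cyclic AMP, gave -1.79, -1.88, -1.90 and -1.75 in wild-type pools 1 to 4 and -0.62, -0.74, -0.997 and -1.14 in null pools 1 to 4. All null pools were above the wild-type pools, which held for 8.08% of all genes. As for Adm, the null pools on slide 1 were the higher ones. The rise of Pde4b was 1.94-fold, at 0.95 ± 0.12 (log2, SE) with a limma adjusted p of 0.0101, and kept its call in all 8 fits that leave out a pool. It lost its call under normexp background correction (0.73, limma adjusted p = 0.748) and in fits of a single slide. Prkar1b, a regulatory subunit of protein kinase A, rose by 0.60 ± 0.12, or 1.51-fold (limma adjusted p = 0.0414), and lost its call in 6 of those 8 fits. Pde4a, a close relative of Pde4b, stood at 0.42 ± 0.13 without passing (adjusted p = 0.119). Gnas, which encodes the stimulatory G protein, stood at 0.11 ± 0.13, the catalytic subunit gene Prkaca at -0.20 ± 0.09 and Creb1 at -0.02 ± 0.12.

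**Figure D3:**
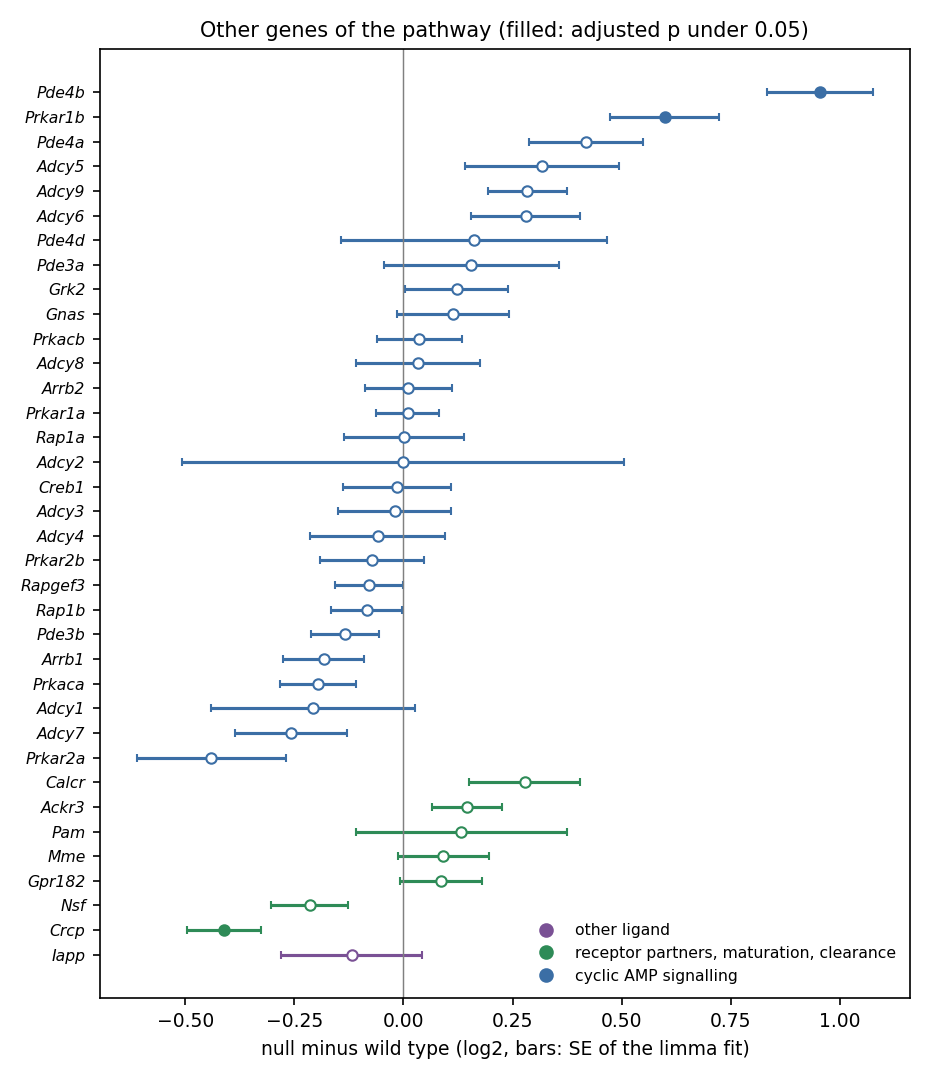
Null minus wild type (horizontal axis, log2, bars are the SE of the limma fit) for 36 of the 37 measured genes of the pathway, without Calca, whose null pool 3 stood at -7.10. Filled points have an adjusted p under 0.05, which are Pde4b at 0.95, Prkar1b at 0.60 and Crcp at -0.41.

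The receptor acts in endothelium, and its genes were set beside 30 markers of endothelial cells. All 30 were well above background on all 8 arrays. Of these, 2 rose, none fell and 28 did not pass (6.67% called, against 4.20% over all genes), with a median difference of 0.11. The mean was higher in null for 22 and lower for 8. The groups did not overlap for 9 of the 30 (5 higher, 4 lower in null), and for 16.1% of all genes. Sox17, a factor of arterial endothelium, rose 1.25-fold and Clec14a, a surface lectin of vessels, 1.41-fold (limma adjusted p = 0.0431 and 0.0465), and in the 8 fits that leave out a pool Sox17 was never called and Clec14a in 1. With the pool number as a block 7 were called, 4 higher and 3 lower, while 2343 of 17099 genes were called over all. The tight junction gene Cldn5 (-0.27), Cd34 (-0.21) and the nitric oxide synthase gene Nos3 (-0.24) were then lower, and Tie1 (0.28) and Sox7 (0.50) higher. The mean log2 signal of the list overlapped between the genotypes, at 0.14 to 0.29 in wild-type and 0.25 to 0.38 in null pools. In bulk RNA, a change in the number of cells of a type and a change in RNA per cell cannot be told apart.

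Markers of other cells of the embryo were measured as well. All 14 measured genes of heart muscle had a higher mean in the null pools, with a median difference of 0.21, against -0.01 over all genes. Of these, 2 rose (14.3% called, against 4.20% over all genes). Nppb and Nppa, the natriuretic peptide genes, rose 3.02-fold and 2.54-fold (limma adjusted p = 0.0397 and 0.0433), and lost their call in 6 and 7 of the 8 fits without a pool. The mean log2 signal of the list was 3.28 to 3.37 in wild-type and 3.58 to 4.08 in null pools. All 12 genes of primitive red cells had a lower mean, with a median of -0.37, and 1 fell (8.33% called). It was Klf1, an erythroid transcription factor (-0.88 ± 0.18, limma adjusted p = 0.0377, lost in 7 of the 8 fits). Their mean signal was 1.98 to 2.39 in wild-type and 1.46 to 2.03 in null pools. The part of these shifts in the Adm values was not tested.

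Markers of tissue from outside the embryo ranged from not detected to bright, and no measured one was called in the reported fit. Of 13 trophoblast markers on the array, 7 were not well above background on any array, among them Tpbpa, Ctsq and Gcm1. The 4 measured ones, which included the placental lactogen genes Prl3d1 and Prl3b1, had a mean log2 signal of -2.95 to -2.52 in wild-type and -2.95 to -2.13 in null pools, and none was called. The smallest p among them was that of Ascl2 (0.54 ± 0.20, SE, log2; limma adjusted p = 0.173). Of 10 decidual markers 4 were well above background on all arrays, namely Cryab, Des, Wfdc1 and Tdo2. Whether their signal came from maternal tissue or from the embryo itself was not tested. Of the 10, 5 were measured, and none of the 5 was called. Angpt4 had the smallest p (-0.50 ± 0.23; limma adjusted p = 0.256), and it was called with the slide (0.0223) or the pool number (0.0282) as a block. The decidual prolactin genes Prl8a2, Prl3c1 and Prl6a1 were well above background on 1 wild-type array and on no null array. Il1rl1 was so on 2 wild-type arrays and on no null array. Of 13 measured yolk sac genes none was called, and their mean signal was -2.53 to -1.39 in wild-type and -2.62 to -1.26 in null pools. The brightest were Afp, with means of 3.04 in wild type and 2.80 in null, and Rhox5, at 1.12 in both. Alb had the smallest p there (limma adjusted p = 0.156), with 3 wild-type and 1 null pool well above background, and was called without null pool 1 (0.0313). The part of such tissue in the Adm values was not tested.

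The 5 genes did not vary together closely within the genotypes. Deviations of each pool from its group mean were correlated over the 8 pools, which share slides and pool numbers, so that the values are a description. Adm gave r of 0.62 with Ramp2, 0.50 with Ramp1, 0.43 with Ramp3 and -0.22 with Calcrl. As the SD of Adm was 0.02 in wild type and 0.47 in null, its r values rest almost wholly on the null pools. Calcrl gave 0.42 with Ramp1, 0.08 with Ramp2 and -0.27 with Ramp3. Ramp1 and Ramp3 gave 0.57, and Ramp2 gave 0.40 with each of them. With the mean of the 30 endothelial markers, r was -0.44 for Calcrl, -0.17 for Ramp2, -0.53 for Ramp3, -0.62 for Ramp1 and -0.02 for Adm.

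The genes whose deviations were most like those of Adm, among 13091 genes well above background on all arrays, were Ier3 (r = 0.99), Mettl8 (0.99), Fcmr (0.98) and Rhbdf1 (0.97). Of all these genes 7.72% had an r above 0.7 with Adm. These r values too rest almost wholly on the null pools, where Adm differed between the slides. Ier3, an early response gene, also differed between the genotypes, by 2.82 (log2), while Mettl8, Fcmr and Rhbdf1 stood at -0.15, -0.04 and 0.11. For Calcrl the closest were Mcm5, Trmt10a, Acp2 and Cd276 (0.98, 0.97, 0.96 and 0.95). For Ramp2 they were Lrrc56, Dmac2l, Arhgef10l and Bhlhe22 (0.97, 0.96, 0.95 and 0.95). Among those closest to Ramp3 were Slc50a1, Paqr7 and Unc93b1 (0.997, 0.99 and 0.99), and 17.3% of genes had an r above 0.7 with it. For Ramp1 they were Slc7a6os, Dhrs11, Hjv and Isca1 (0.98, 0.97, 0.97 and 0.97).

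The order of the members' differences was compared over the processing settings. Adm stood between 1.41 and 2.20 in 13 alternatives and between 1.63 and 1.96 in the 8 fits that leave out a pool. Calcrl and Ramp2 stood above 0 in all of these settings, at 0.03 to 0.46 and at 0.01 to 0.16 over the 13 alternatives. Ramp1 ran from -0.24 to 0.13 and was above 0 in 10 of 13. Ramp3 ran from -0.12 to 0.12 and was above 0 in 8 of 13. The filter settings, the mean of kept probes and the slide or pool number as a block left every member at its reported difference. They add to these counts without testing the direction, also for Calcrl and Ramp2. In the other settings Ramp1 stood below 0 under normexp, with the deposited table and with the Y-linked covariate below. There Ramp3 stood above 0 only with quantile normalization, the deposited table and slide 1 alone, and below 0 in the rest. With median scaling, no shift between arrays and normexp the median difference of all genes was itself -0.098, -0.078 and -0.067. Relative to that median Ramp3 stood at 0.040, 0.040 and 0.052, against 0.040 in the reported setting. The pools also differed in embryo sex, where the Y-linked signal, scaled so that the highest pool is 1, was 0.0228 to 0.836 in wild-type and 0.479 to 1 in null pools. With this level as a covariate Adm stood at 1.82 ± 0.28 and Calcrl at 0.17 ± 0.15, while Ramp1 and Ramp3 stood at -0.05 ± 0.15 and -0.12 ± 0.17 (SE, log2).

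**Figure D4:**
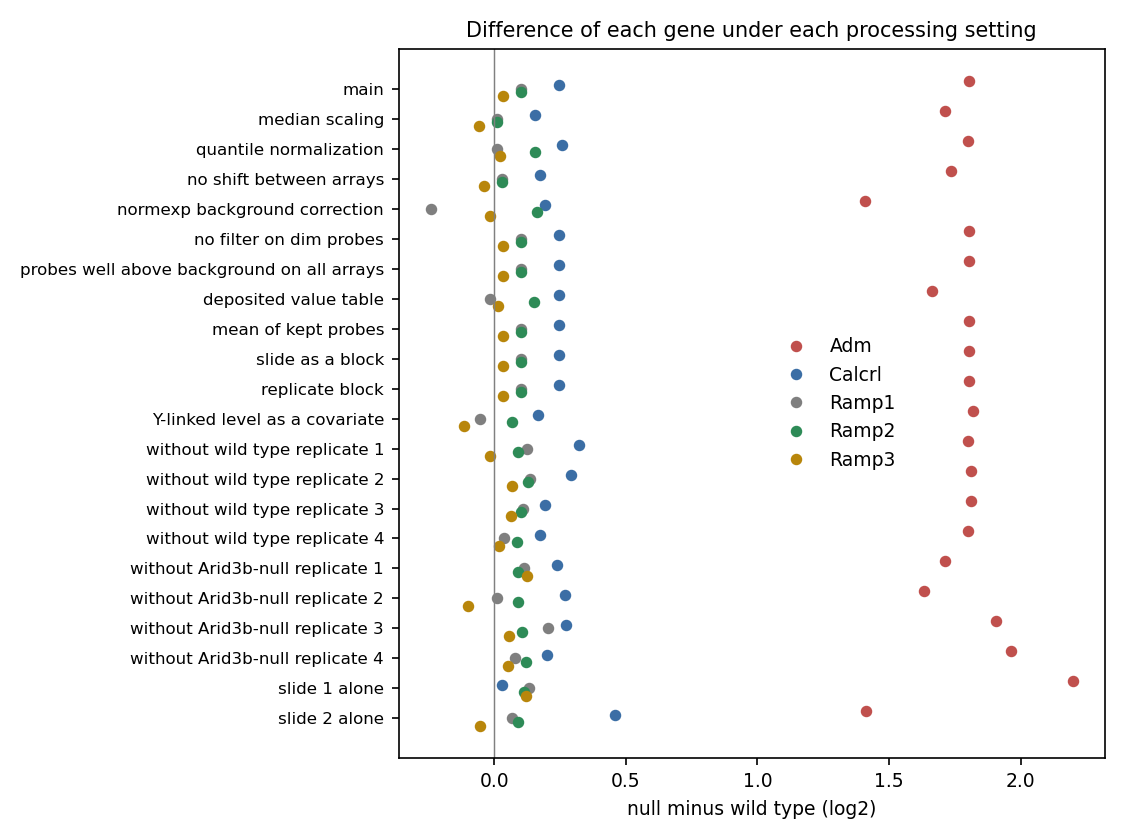
Null minus wild type (horizontal axis, log2) of Adm, Calcrl, Ramp1, Ramp2 and Ramp3 under the reported setting (top row) and each alternative. Adm lies between 1.41 and 2.20 throughout, and the other 4 genes lie between -0.24 and 0.46.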

How the data were processed

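Total RNA of 8 pools was hybridised to one-colour whole mouse Agilent arrays (Cy3). Per the file headers, the processed intensity, from Feature Extraction 9.5.3.1, is background-subtracted and detrended within the array and not scaled between arrays. The mean and local background intensity, also deposited, served only the normexp alternative (offset 50). The deposited value table, on a log2 scale as far as its values show (27108 probes, medians 9.44 to 9.47), served as an alternative, and the labels do not tell its making. Its slope on quantile-normalized log2 signals was 0.893 in wild-type pool 1, so its scale is near log2 but compressed.

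Each array holds 45018 spots. The 1639 control spots and 87 to 175 flagged spots per array were left out and spots of a probe averaged, giving 41174 probes. The share of probes well above background was 59.9% to 64.1% per array, and at most 2 spots were saturated. Those passing that limit on 4 or more of 8 arrays were kept (25555), and the brightest stood for a gene, with names updated through RefSeq (GRCm38.p6). The genotypes were set against each other in limma 3.58.1 under R 4.3.3 (lmFit, eBayes, genotype as the only term), with Benjamini-Hochberg adjustment over 17099 genes, of which 718 were called (487 higher, 231 lower). A p-value here covers only how far these pools scatter, which may be technical. The number of arrays limits the precision.

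The members and lists were chosen with earlier results of these data known. Named are the members, up to 4 called genes per list or the gene with the smallest p, and the 4 genes most like each member, of which 1 is not reported here; a few further list members were chosen after their values were seen. Pools of the same number deviated together (correlations 0.426 to 0.635), and the number was used as a block in an alternative fit. The labels do not give such a pairing. Pools of the same number also share a slide, and the part of the slide in these correlations was not tested. The steps were tested on simulated data, but no result of that is given here and nothing above rests on it. Alternatives changed scaling, background correction, filter, probe choice, value source, blocks and samples.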

Additional observations from a re-analysis of the deposited data

Results flagged for a closer look

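Of 34 groups of 4 pools checked among the 5 members and the named list genes, 3 held a pool far from the other 3 by Dixon's test, which chance gives in about 1 in 20 groups. Calca stood at -7.10 in null pool 3, against -0.23 to 0.12 in the other null pools (gap over range 0.952), on a spot not well above background. Nppa stood at 5.14 in null pool 2, against 3.88 to 3.95 in the others (0.946), and Nppb at 2.065, against 0.46 to 0.72 (0.838). None of the 5 members had such a pool.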

How the results depend on the processing

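Adm stood at 1.41 under normexp, 2.20 within slide 1 and 1.41 within slide 2, and at 1.63 to 1.96 without a pool. Calcrl stood at 0.032 within slide 1 and 0.46 within slide 2 (0.17 to 0.32 without a pool). Ramp2 stood at 0.011 with median scaling, 0.15 with quantile normalization, 0.031 with no shift between arrays and 0.16 under normexp, and Ramp1 turned to -0.24 under normexp. Relative to the median difference of all genes, Ramp2 stood at 0.109, 0.17, 0.109 and 0.23 in these 4 settings and at 0.109 in the reported one. Without a pool Ramp1 ran from 0.011 to 0.21, Ramp2 from 0.085 to 0.13 and Ramp3 from -0.10 to 0.12.

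The 718 genes called became 204 with median scaling (52.0% higher, against 67.8%), 157 with no shift (79.6% higher), 164 without the filter on dim probes (83.5% higher), 308 with the deposited table, 304 with the Y-linked level as a covariate, 1370 with slide as a block (58.8% higher) and 2343 with the replicate block (56.8% higher). Without a pool they ran from 93 to 628. Under normexp limma called 0 genes (740 at an unadjusted p under 0.05), and within slide 1 and slide 2 alone it called 0 (1881 and 2861). The cause was not tested, other than that a slide alone holds fewer samples.

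The 3 pathway genes called became 1 with median scaling, no shift, the deposited table or the Y-linked level as a covariate, 0 under normexp or within either slide, and 6 with the replicate block. The 2 endothelial genes called became 1 with quantile normalization, 7 with the replicate block, and 0 with median scaling, no shift, normexp, no filter, the deposited table, the Y-linked level or either slide alone. Without a pool they ran from 1 to 3 and from 0 to 1. The slide effect was called for 1 member, and for 0 with no shift, normexp or no filter, and for 0 to 1 without a pool.

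Some uncalled values changed sign. Slide 2 minus slide 1 stood at 0.051 for Ramp2 and 0.072 for Ramp3 with no shift, at 0.70 for Ramp1 and 0.19 for Ramp3 under normexp, and at 0.062 for Ramp3 with the deposited table. Without a pool it ran from -0.20 to 0.13 for Ramp3, above 0 without wild-type pool 2 or null pool 2. The interaction stood at 0.022 for Ramp1 and 0.063 for Ramp2 with no shift, and for Ramp2 at 0.034 with median scaling and 0.11 under normexp. Without a pool it ran from -0.26 to 0.13 for Ramp1, -0.080 to 0.031 for Ramp2 and -0.51 to 0.16 for Ramp3. Calca stood at 0.0034 with probes well above background on all arrays, and Ascl2 at -0.032 under normexp. Of the values for slide effects, interactions and named list genes under the alternatives, 273 kept direction and side of the threshold, 114 kept direction but lost the call, 3 gained a call and 20 changed sign. Among the named list genes outside the pathway and endothelial lists, the replicate block changed the call of Angpt4, as given above, and of no other, and its values for the genes chosen by likeness are not given. The signal over background limits Ramp1, whose processed signals were 102 to 141.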
